A study of Mus musculus with 9 samples.

Results

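The genes described here are 38 genes of autophagy and the lysosome in mouse muscle, taken by gene symbol from tables of 55536 genes. The list was set by function and not by a cut on any measured value, and each symbol matched 1 row. Earlier results of these data were known when it was chosen. RNA sequencing of total RNA from muscle of male ICR mice, an outbred stock, gave 9 libraries in 3 groups of 3. The young vehicle group was 2 months old (libraries 2, 3 and 4), the aged vehicle group 18 months old (libraries 1, 3 and 4), and the aged GW8510 group 18 months old and injected intraperitoneally with 2 mg/kg GW8510 each day for 14 days (libraries 1, 3 and 4). GW8510 is, by the series title, a benzenesulfonamide that interacts with p21-activated kinases, and it was dissolved in sodium carboxymethylcellulose. The labels name no particular muscle and no genetic alteration. Whether each library is a different mouse is not said, and the p-values therefore reflect only the variation among these libraries, some of which may be technical.

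Autophagy carries cytoplasm, protein aggregates and organelles to the lysosome. A kinase complex (ULK1 or ULK2 with ATG13) and a lipid kinase complex (PIK3C3 with BECN1 and ATG14) start a membrane, onto which the conjugation enzymes (ATG3, ATG5, ATG7, ATG12 and ATG16L1) attach small ubiquitin-like proteins of the ATG8 family, LC3 and GABARAP. Cargo receptors such as SQSTM1 (p62) bind both the cargo and these proteins, and the closed vesicle fuses with a lysosome, which is acidified by a proton pump and filled with cathepsins and other hydrolases. In skeletal muscle this route removes damaged mitochondria and supplies amino acids in fasting, and FOXO factors and TFEB are known to raise the transcription of its genes.

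TFEB and TFE3 bind the palindrome TCACGTGA, known as the core of the CLEAR element, which contains the shorter E-box CACGTG. RefSeq promoter windows of 300 bases, from 250 before to 50 after a transcription start, were at hand for 31 of the 38 genes (GRCm38.p6). Both strands were searched. CACGTG lay in a window of 11 of the 31 genes (35.5%), against 8.09% of 27025 genes, and TCACGTGA in 5 of the 31 (16.1%), against 1.12%. The forkhead motif GTAAACA lay in none of the 31, against 4.05% of genes. A match describes only the letters in the window. Whether it is bound, or bears on any level below, was not tested. The 5 stretches with the full palindrome in capitals are shown because they hold the longest motif searched, in a conjugation enzyme gene, both proton pump genes and 2 lysosomal hydrolase genes. They are read 5′ to 3′ on the strand of the gene.
Atg3, chr16:45158746-45158775, plus strand: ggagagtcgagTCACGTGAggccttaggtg
Atp6v0d1, chr8:105566050-105566079, minus strand: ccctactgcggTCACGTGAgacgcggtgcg
Atp6v1a, chr16:44139373-44139402, minus strand: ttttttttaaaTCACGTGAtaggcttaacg
Ctsa, chr2:164833758-164833787, plus strand: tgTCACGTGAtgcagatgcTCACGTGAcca
Ctsd, chr7:142387908-142387937, minus strand: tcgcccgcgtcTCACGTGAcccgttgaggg

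The Ctsa stretch holds the palindrome on both sides of the annotated start. Its first base is at -13 for the first copy and at 5 for the second, and the first base is at -72 in Atg3, -4 in Atp6v0d1, -132 in Atp6v1a and -99 in Ctsd. Lamp1, a gene for an abundant lysosomal membrane glycoprotein, had no full palindrome but the most copies of CACGTG in these windows, 4 in the last 61 bases before its start, in capitals in this stretch of 250 bases.
Lamp1, chr8:13158911-13159160, plus strand: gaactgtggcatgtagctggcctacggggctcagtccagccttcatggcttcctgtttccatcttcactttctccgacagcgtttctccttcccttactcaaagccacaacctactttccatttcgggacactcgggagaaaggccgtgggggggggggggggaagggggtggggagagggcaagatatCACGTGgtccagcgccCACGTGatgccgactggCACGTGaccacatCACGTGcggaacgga
CACGTG without the full palindrome also lay in the windows of Atg5, Atg7, Atg14, Bnip3 and Ctsl.

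All 38 genes were read in muscle, at very unequal levels. On the deposited TPM scale, which takes out transcript length, Ctsd (the aspartic protease cathepsin D) had the highest mean over the 9 libraries, 401 TPM. Sqstm1 (p62) followed at 362, Pink1 (a kinase that marks damaged mitochondria) at 344, Lamp1 at 286 and Map1lc3a (the ATG8 protein LC3A) at 262 TPM. The means of Ctsd and Sqstm1 in aged vehicle libraries, 507 ± 297 and 481 ± 291 TPM (SD, n = 3), had spreads that covered the aged vehicle means of all of these neighbours, 361 for Pink1, 321 for Lamp1 and 323 for Map1lc3a. In young vehicle libraries Ctsd stood at 386 ± 39.4, Sqstm1 at 317 ± 16.7, Pink1 at 313 ± 53.1, Lamp1 at 264 ± 10.8 and Map1lc3a at 223 ± 4.69 TPM. There the spread of Pink1 met those of Ctsd, Sqstm1 and Lamp1, so that it could not be ordered against them. In aged GW8510 libraries Pink1 stood first, at 356 ± 16.4 TPM, above Ctsd at 308 ± 8.7 and Sqstm1 at 289 ± 1.23. The genes of the starting complexes and of conjugation were lower. Becn1 had a mean of 38.9, Ulk2 of 20.8, Ulk1 of 14, Atg3 of 14.4, Atg5 of 6.91, Pik3c3 of 4.95, Atg14 of 3.91 and Atg7 of 3.6 TPM. Of the 2 transcription factor genes, Tfeb stood at 47.3 TPM and Tfe3, the lowest of the 38, at 3.53.

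**Figure D1:**
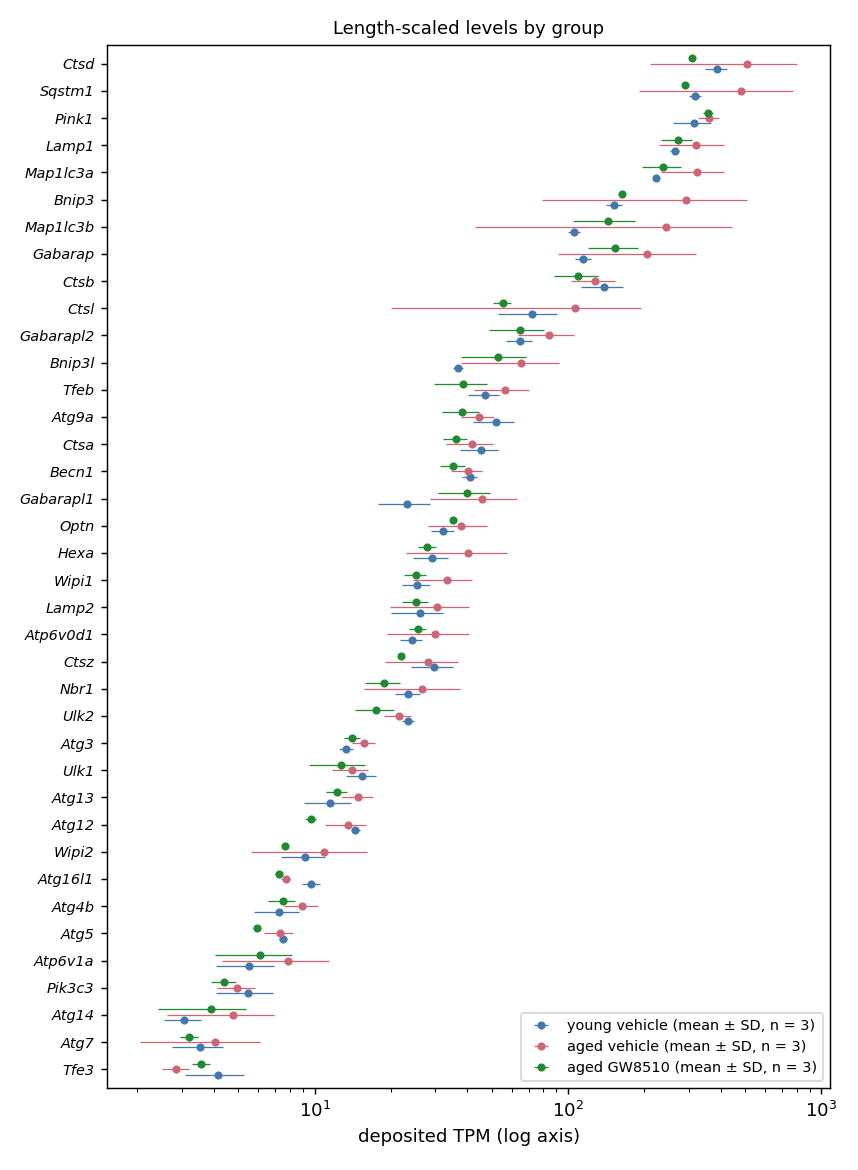
Deposited TPM of each of the 38 genes (log axis), with a point for the mean of each group and a line for ± SD over 3 libraries. By the mean over all 9 libraries Ctsd, Sqstm1 and Pink1 lead and Atg7 and Tfe3 close the order, while Pink1 leads in the aged GW8510 group. The aged vehicle bars of Ctsd, Sqstm1, Bnip3, Map1lc3b and Ctsl are the widest of their rows.

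Among the ATG8 family the young vehicle levels were 223 ± 4.69 TPM for Map1lc3a, 115 ± 8.35 for Gabarap, 106 ± 5.82 for Map1lc3b, 64.6 ± 7.72 for Gabarapl2 and 23.2 ± 5.42 for Gabarapl1 (SD, n = 3). Gabarap and Map1lc3b did not differ beyond their spread. Gabarapl1, the least abundant in the young, measured 45.8 ± 17.3 TPM in aged vehicle and 40 ± 9.31 TPM in aged GW8510 libraries.

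Library totals ran from 21718965 to 27437970 counts. Between libraries, levels below are CPM, counts scaled to library size with TMM factors. Statements below on overlap and fold change hold for CPM, and deposited TPM can give other differences between groups. Markers of skeletal muscle led every library, with summed TPM over 12 genes of 101095 to 116441 in young vehicle, 88019 to 100981 in aged vehicle and 80258 to 95994 in aged GW8510 libraries. Aged vehicle library 4 stood apart in these genes. It held the highest level of 24 of the 38, where 23.2% of the 14384 genes tested were highest there, and of 52 of 139 other pathway genes. It lay at 1.5 times or more the median of the other 8 libraries for 15 of the 38 (15.8% of all genes). For 6 of the 38 it lay at 2 times or more, a cut for which the share over all genes was not counted. Both cuts of this ratio were chosen after the values were seen. The median of this ratio was 1.39 over the 38 genes and 0.985 over all genes. In the same library all 8 fibroblast markers had their lowest level, with a summed TPM of 47.3 against 389 to 844 in young vehicle libraries, 220 at most in aged vehicle and 105 to 269 in aged GW8510 libraries. Its macrophage sum, 113 TPM over 13 genes, lay within the range of its group (65.8 to 132, with 89 to 298 in young vehicle and 71.8 to 137 in aged GW8510 libraries). Single macrophage markers differed. The median ratio to the other 8 libraries was 0.89 over the 12 tested. Library 4 held the highest level of 2 of them, Ptprc (4.23 times that median) and Cd14, and the lowest level of 1. It also held the highest level of Fcgr1, which was not tested. Its endothelial sum over 7 genes was 74.2 TPM, where young vehicle libraries held 101 to 134, aged vehicle 69.5 to 85.3 and aged GW8510 70.9 to 112. The adipocyte sum over 5 genes (Lep at 0 in at least 1 library) ran from 4.59 to 19.5, 1.92 to 5.29 and 1.14 to 48.6 TPM in the same order of groups. The erythroid sum over 5 genes (Alas2 at 0 in at least 1 library) ran from 168 to 316, 33.5 to 1242 and 7.17 to 1437 TPM. The part of these cell types in the results was not tested, and in bulk tissue fewer cells of a type and less RNA per cell cannot be told apart.

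**Figure D2:**
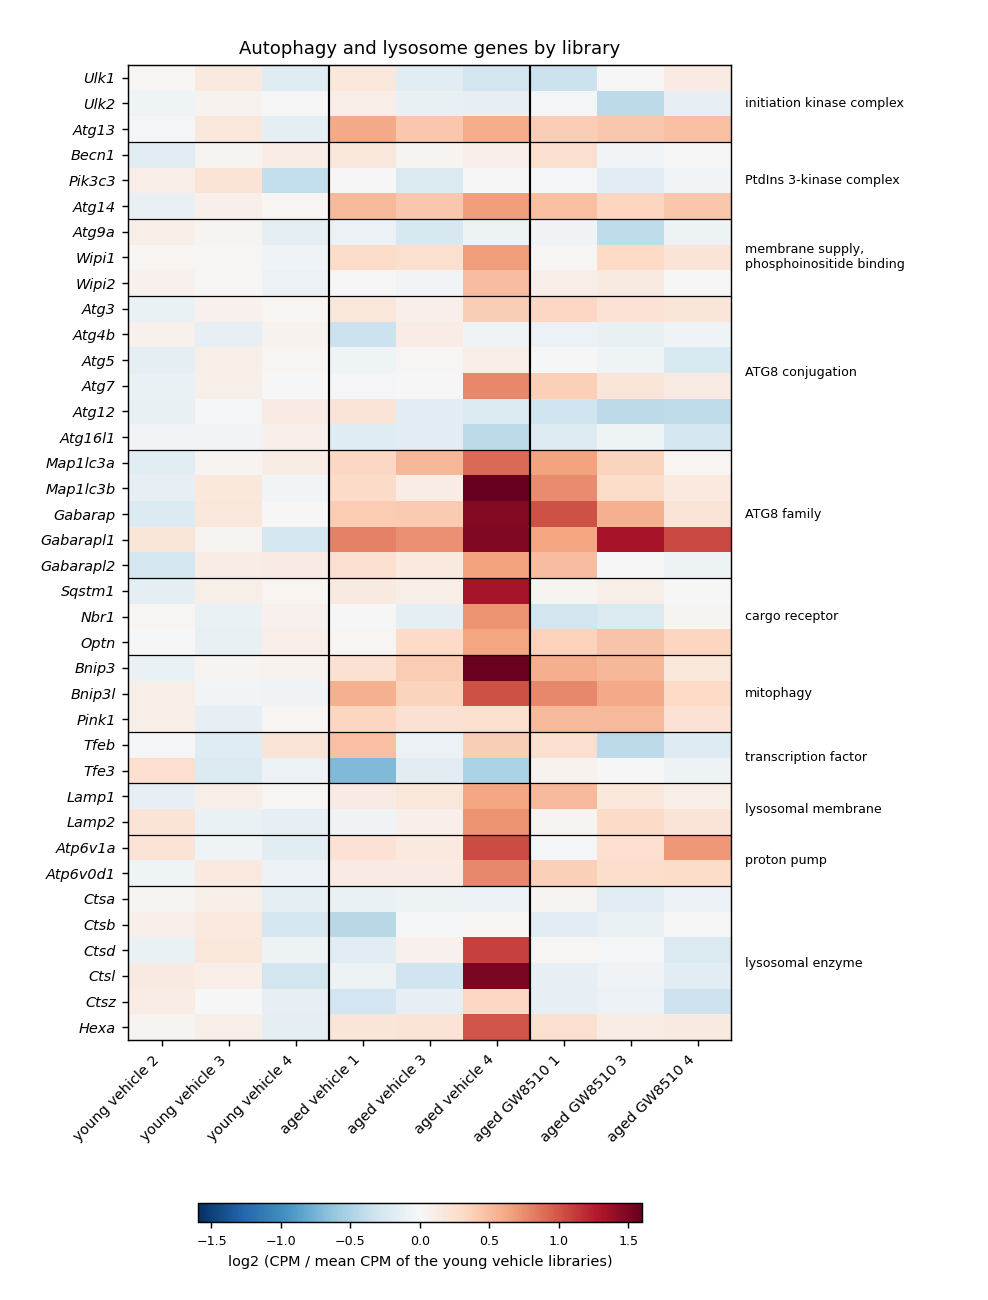
The 38 genes (rows, by role) in the 9 libraries (columns), as log2 of the CPM over the mean CPM of the 3 young vehicle libraries; values past the ends of the colour scale take the end colour. The column of aged vehicle 4 is the reddest and holds the highest level of 24 of the 38 genes. Gabarapl1, Atg13, Atg14 and Bnip3l are among the genes that are red in all 6 aged columns. In 9 of the 38 every aged library lay above every young one, and the share over all genes was not counted.

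The first comparison, aged vehicle over young vehicle, asked which of these transcripts differ between muscle at 18 and at 2 months. None of the 38 passed in edgeR's quasi-likelihood test at a Benjamini-Hochberg adjusted p under 0.05 over all genes, where 1.22% of genes did (0.521% higher and 0.695% lower). Their log2 fold changes ran from -0.44 to 1.05, with 27 above 0 and 11 below and a median of 0.29, against a median of 0.01 and 51.1% above 0 over all genes. At an unadjusted p under 0.05 there were 11 of the 38 (10 higher and 1 lower), against 19.2% of all genes (9.07% higher and 10.1% lower). In 13 of the 38 every aged vehicle library lay above every young vehicle library (12.7% of all genes), and in 1, Atg16l1, every one lay below (13.5%). Without aged vehicle library 4 the median was 0.11, with 23 of 38 above 0, and again none passed (0.963% of all genes did). None passed either with only the 6 libraries compared, where 0.354% of genes did. The 3 comparisons share libraries, so their values are not independent.

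Gabarapl1 (ENSMUSG00000030161, chromosome 6 from 129533160 to 129542346), which encodes an ATG8 protein of the GABARAP branch and is a known FOXO target, had the largest log2 fold change and the smallest p of the 38. It measured 36.5, 33 and 26.4 CPM in the young vehicle libraries, 56.1, 53 and 89.1 in the aged vehicle libraries and 49.6, 79.7 and 66.4 in the aged GW8510 libraries. All 6 aged libraries lay above the 3 young ones, with the highest value in aged vehicle 4. The age difference was 2.07-fold, a log2 fold change of 1.05 with a standard error of 0.25, and did not pass (edgeR quasi-likelihood, Benjamini-Hochberg adjusted p = 0.0771). It was 0.77 without aged vehicle library 4. The gene passed in 2 of 15 alternative analyses, with DESeq2, where 6.77% of all genes passed, and with no filter on low counts, where 2.72% did. Its adjusted p over the 15 (edgeR, DESeq2 and limma) ran from 0.00377 to 0.245. In the authors' deposited table Gabarapl1 is the one gene of the 38 marked as significant between these groups, where 2.65% of the genes they tested are, with a log2 ratio of 1.06 (adjusted p = 0.00444, DESeq2 or edgeR by the processing notes). Every gene that the authors' deposited table marks between these 2 groups has a log2 ratio of at least 1.01 in size, so smaller differences carry no mark. The gene shares 570 of its 2013 exon bases with 1700101I11Rik on the opposite strand, and it is not stated whether counting used strand. That neighbour measured 0.756 CPM at most.

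The other ATG8 genes had the same sign. Gabarap measured 89.1, 117 and 104 CPM in young vehicle, 137, 138 and 285 in aged vehicle and 209, 153 and 119 in aged GW8510 libraries. The 2 lower aged vehicle values were close together and above every young library, and library 4 was far above both. Map1lc3b, the LC3B gene, measured 172, 212 and 183 in young vehicle, 233, 205 and 599 in aged vehicle and 320, 231 and 211 CPM in aged GW8510 libraries. Here aged vehicle library 3 lay inside the young range, and library 4 was 2.83 times the median of the other 8. Map1lc3a measured 133, 156 and 165 CPM in young vehicle, 191, 219 and 283 in aged vehicle and 236, 193 and 155 in aged GW8510 libraries. The aged vehicle group did not overlap with the young one, whereas treated library 4 lay inside the young range. Gabarapl2 measured 55.1, 72.6 and 73.3 CPM in young vehicle, 79.8, 74.6 and 105 in aged vehicle and 94.4, 67.3 and 63.6 in aged GW8510 libraries. Here too the aged vehicle group lay above the young one, by a small margin, and the treated group overlapped both. The log2 fold changes were 0.85 (standard error 0.31) for Gabarap, 0.87 (0.37) for Map1lc3b, 0.61 (0.21) for Map1lc3a and 0.37 (0.21) for Gabarapl2, with adjusted p-values from 0.167 to 0.356 (edgeR quasi-likelihood, Benjamini-Hochberg). Without aged vehicle library 4 they were 0.41, 0.21, 0.44 and 0.20. The family's median was 0.85 with all libraries and 0.41 without aged vehicle library 4, with 5 of 5 above 0 in both.

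Among the 38 genes, 1 subunit gene of each starting complex had a larger age difference than its listed partners. This contrast between genes was not tested. Atg13, the scaffold of the kinase complex (ENSMUSG00000027244, chromosome 2 from 91674618 to 91710576), measured 31.2, 36.2 and 28.6 CPM in young vehicle, 48.8, 43.2 and 48.4 in aged vehicle and 42, 43.3 and 44.5 in aged GW8510 libraries. In CPM the groups did not overlap with the young one, and library 4 was not the highest. On the deposited TPM scale Atg13 had means of 11.5 ± 2.39 in young vehicle, 14.9 ± 2.08 in aged vehicle and 12.3 ± 1.16 in aged GW8510 libraries (SD, n = 3), closer together for the treated group. Its log2 fold change was 0.55 (standard error 0.13; edgeR quasi-likelihood, Benjamini-Hochberg adjusted p = 0.0833) and 0.53 without aged vehicle library 4. Its partners among the 38 genes lay near 0, with log2 fold changes of -0.08 (standard error 0.18) for Ulk1 and -0.05 (0.15) for Ulk2. Rb1cc1, a further subunit gene of this complex that is not among the 38, stood at 0.62 (0.28). Without aged vehicle library 4 Rb1cc1 stood at 0.35. Ulk2, a kinase related to Ulk1, measured 110, 120 and 116 CPM in young vehicle, 124, 106 and 105 in aged vehicle and 114, 86.4 and 105 in aged GW8510 libraries, and the groups overlapped.

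Atg14, which directs the lipid kinase to the forming autophagosome (ENSMUSG00000037526, chromosome 14 from 47540893 to 47570649), measured 7.07, 8.07 and 7.8 CPM in young vehicle, 11, 10.3 and 12.2 in aged vehicle and 10.7, 9.69 and 10.4 in aged GW8510 libraries. In CPM each aged library lay above each young one. The deposited TPM means of Atg14 were 3.06 ± 0.511 in young vehicle, 4.77 ± 2.15 in aged vehicle and 3.89 ± 1.48 in aged GW8510 libraries (SD, n = 3), with wide spreads in the aged groups. The log2 fold change was 0.55 (standard error 0.15; edgeR quasi-likelihood, Benjamini-Hochberg adjusted p = 0.0968) and 0.48 without aged vehicle library 4. Becn1 (beclin 1) and Pik3c3 (the catalytic subunit), with log2 fold changes of 0.10 (0.14) and -0.07 (0.18), had overlapping groups. Becn1 measured 49.7, 57.9 and 60.7 CPM in young vehicle, 63.6, 57.7 and 59.5 in aged vehicle and 66.8, 54.2 and 56.1 in aged GW8510 libraries. With DESeq2, Atg13 (adjusted p = 0.0076) and Atg14 (adjusted p = 0.0281) passed. Over the 15 alternatives (edgeR, DESeq2 and limma) the adjusted p ran from 0.0076 to 0.395 for Atg13 and from 0.0281 to 0.409 for Atg14.

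The genes for lipid delivery and for conjugation showed small differences. Wipi1, a phosphoinositide-binding protein gene, measured 44.5, 44 and 41.7 CPM in young vehicle, 53, 52 and 69 in aged vehicle and 44, 54 and 50.1 in aged GW8510 libraries. The young and aged vehicle groups did not overlap, and the log2 fold change was 0.42 (standard error 0.15; edgeR quasi-likelihood, Benjamini-Hochberg adjusted p = 0.191), or 0.27 without library 4. Atg9a, which encodes a transmembrane lipid scramblase, measured 172, 166 and 144 CPM in young vehicle, 150, 134 and 152 in aged vehicle and 155, 121 and 152 in aged GW8510 libraries. Its groups overlapped. In Wipi2, related to Wipi1, the log2 fold change of 0.17 was -0.02 without library 4. Among the 6 conjugation genes, 3 were above 0 and 3 below, with a median of -0.02. Atg3, the E2-like enzyme of LC3 conjugation, measured 17.1, 19.3 and 18.8 in young vehicle, 20.9, 19.5 and 24.1 in aged vehicle and 23.2, 21.6 and 21 CPM in aged GW8510 libraries. Atg16l1, which places the conjugation complex on the membrane, measured 24.3, 24.3 and 26.4 CPM in young and 21.9, 22.1 and 18.6 in aged vehicle libraries. Atg3 lay above the young range and Atg16l1 below it, with log2 fold changes of 0.23 (0.14) and -0.26 (0.13), neither past the threshold. Atg7, the E1-like enzyme, measured 10.1, 10.3 and 17.5 CPM in aged vehicle libraries, the highest in library 4, against 9.53, 11 and 10.3 CPM in young ones. Atg4b, for a protease that trims LC3, and Atg5 had log2 fold changes of -0.09 and 0.02.

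In the 3 genes of mitophagy, the removal of mitochondria, every aged vehicle library lay above every young one. Bnip3l (also called Nix; ENSMUSG00000022051, chromosome 14 from 66985239 to 67008877), an outer-membrane receptor that binds LC3, measured 62.2, 56.5 and 55.9 CPM in young vehicle, 86.1, 74.5 and 118 in aged vehicle and 99.3, 88.9 and 72.8 in aged GW8510 libraries. No aged library reached down to the young range. The log2 fold change was 0.67 (standard error 0.19; edgeR quasi-likelihood, Benjamini-Hochberg adjusted p = 0.119) and 0.47 without library 4. With DESeq2 Bnip3l passed (adjusted p = 0.0271), and its adjusted p over the 15 alternatives (edgeR, DESeq2 and limma) ran from 0.0271 to 0.408. Its relative Bnip3 measured 194, 215 and 216 CPM in young vehicle, 246, 275 and 624 in aged vehicle and 311, 300 and 236 in aged GW8510 libraries. Aged vehicle library 4 was 2.59 times the median of the other 8, and the log2 fold change of 0.87 (standard error 0.32) was 0.32 without it. Pink1 measured 635, 541 and 605 CPM in young vehicle, 751, 704 and 711 in aged vehicle and 849, 851 and 699 in aged GW8510 libraries. In this gene library 4 was no higher than the others, and the log2 fold change of 0.28 (standard error 0.15; adjusted p = 0.336, edgeR quasi-likelihood) was 0.29 without it.

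**Figure D3:**
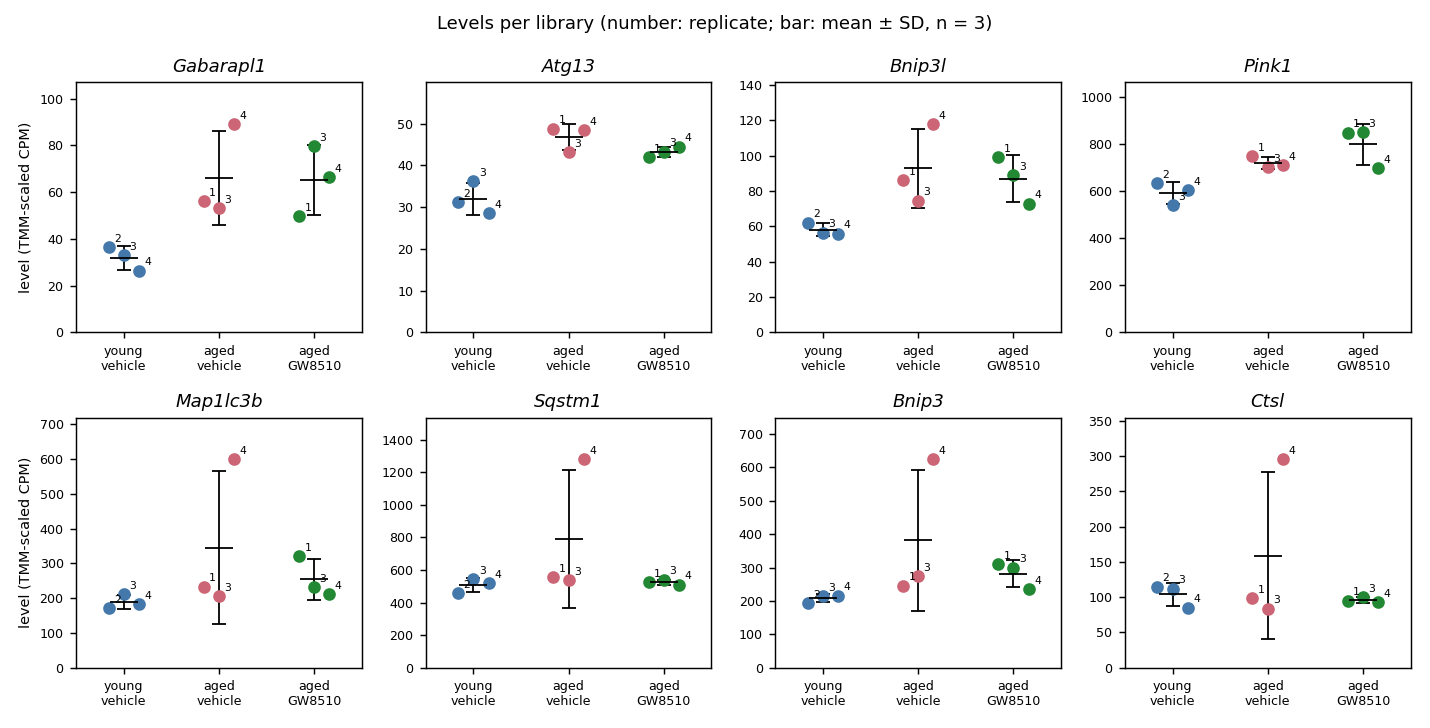
CPM of 8 genes in each library (points, numbered by replicate), with the mean and SD of each group (n = 3). Gabarapl1, Atg13, Bnip3l and Pink1 in the top row have all 6 aged libraries above the young ones, and Map1lc3b, Sqstm1, Bnip3 and Ctsl in the bottom row have aged vehicle library 4 far above the other libraries.

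All 3 cargo receptor genes were highest in library 4, Sqstm1 by the widest margin. Sqstm1 measured 458, 542 and 519 CPM in young vehicle, 557, 538 and 1278 in aged vehicle and 524, 541 and 509 in aged GW8510 libraries. The young, treated and remaining aged vehicle libraries lay together, and library 4 was 2.4 times the median of the other 8. The log2 fold change was 0.64 (standard error 0.30; adjusted p = 0.282, edgeR quasi-likelihood) and 0.11 without it. Nbr1, a ubiquitin-binding receptor gene, measured 74.7, 68.4 and 77 CPM in young vehicle, 73.9, 66.2 and 121 in aged vehicle and 60, 62.4 and 75.8 in aged GW8510 libraries. Library 4 was again the one value above the young range, and the log2 fold change went from 0.25 to -0.07 without it. Optn (optineurin), a receptor for mitochondria and bacteria, measured 60.1, 54.9 and 64.1 CPM in young vehicle, 61.1, 73.6 and 92.1 in aged vehicle and 76.9, 81.6 and 76 in aged GW8510 libraries. Its aged vehicle library 1 lay inside the young range and its other aged libraries above it, with a log2 fold change with age of 0.34, or 0.17 without library 4.

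Of the 6 lysosomal enzyme genes described here, 4 were highest in library 4, where 23.2% of all genes were highest. The 38 other lysosomal enzyme genes of the pathway differed from this. Of those, 6 were highest and 11 lowest in library 4, and their median ratio to the other 8 libraries was 0.924. Ctsl, for the cysteine protease cathepsin L, measured 115, 112 and 85.1 CPM in young vehicle, 98.3, 83.4 and 295 in aged vehicle and 94.8, 100 and 92.7 in aged GW8510 libraries. Library 4 was 3.05 times the median of the other 8, the largest ratio of the 38, and the log2 fold change of 0.61 (standard error 0.41) was -0.19 without it. Ctsd measured 595, 727 and 607 CPM in young vehicle, 566, 672 and 1378 in aged vehicle and 650, 632 and 548 in aged GW8510 libraries. Its log2 fold change of 0.44 (0.30) was -0.06 without library 4. Hexa, a subunit gene of β-hexosaminidase, measured 46.9, 48.5 and 40.7 in young vehicle, 51.9, 52.6 and 91 in aged vehicle and 54.3, 49.3 and 50.2 CPM in aged GW8510 libraries. In CPM the groups of Hexa did not overlap with the young one, and its log2 fold change was 0.52 (0.22), or 0.20 without library 4. Its deposited TPM was 29.1 ± 4.61 in young vehicle, 40.2 ± 17.3 in aged vehicle and 27.8 ± 2.29 in aged GW8510 libraries (SD, n = 3). On that scale the treated mean was not above the young one. Library 4 did not stand out in every enzyme gene: Ctsa, the protective protein of the lysosome, measured 70.1, 70.9 and 70.5 CPM in the aged vehicle libraries, and Ctsb (cathepsin B) 294, 390 and 406. Ctsz, for cathepsin Z, was highest in library 4 (25.3, 28.5 and 39.5 CPM in aged vehicle libraries), and its log2 fold change of -0.01 was -0.22 without it. Ctsb shares 774 exon bases with Fdft1 and Ctsa 495 with Pltp, both on the opposite strand and at means of 73.1 and 30.3 CPM, so their counts are uncertain if strand was not used.

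The membrane and proton pump genes also had their highest value in library 4. Lamp1 measured 432, 503 and 479 CPM in young vehicle, 517, 533 and 733 in aged vehicle and 678, 530 and 501 in aged GW8510 libraries. The 2 vehicle groups did not overlap, at a log2 fold change of 0.34 (standard error 0.19), or 0.16 without library 4, and 1 treated library lay inside the young range. Lamp2, its relative that is needed for fusion with autophagosomes, measured 65.2, 71.4 and 111 CPM in aged vehicle libraries, of which library 4 alone lay above the young range. Atp6v1a, the catalytic subunit of the pump, measured 22.7, 18.6 and 17.2 in young vehicle and 22.9, 21.7 and 40.1 CPM in aged vehicle libraries. Atp6v0d1, a subunit of its membrane sector, measured 28.3, 33 and 27.7 CPM in young vehicle, 32.4, 32.6 and 50.4 in aged vehicle and 38.7, 36.1 and 36.5 in aged GW8510 libraries. The young and aged vehicle groups overlapped in both pump genes, and their log2 fold changes of 0.54 (0.27) and 0.38 (0.19) were 0.20 and 0.13 without library 4.

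The 2 transcription factor genes had opposite signs. Tfeb measured 79.1, 70.4 and 93.1 CPM in young vehicle, 113, 76 and 106 in aged vehicle and 96.8, 60.7 and 70.2 in aged GW8510 libraries. The 3 groups overlapped, with a log2 fold change with age of 0.29 (standard error 0.22). Tfe3 measured 12.2, 8.75 and 9.47 CPM in young vehicle, 6.22, 8.99 and 7.14 in aged vehicle and 10.5, 10.2 and 9.56 in aged GW8510 libraries. Its log2 fold change with age was -0.44 (standard error 0.19; edgeR quasi-likelihood, Benjamini-Hochberg adjusted p = 0.247), the most negative of the 38, and aged vehicle library 3 lay inside the young range.

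**Figure D4:**
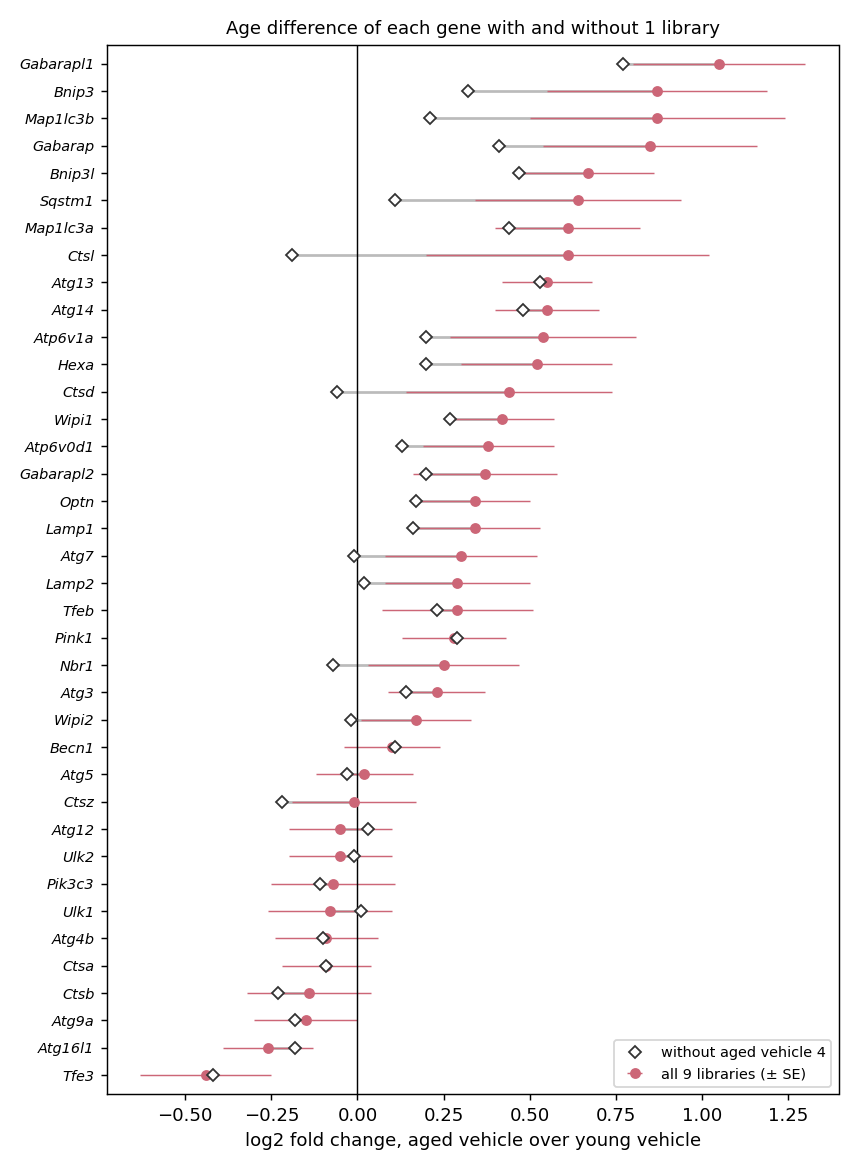
Log2 fold change of each gene, aged vehicle over young vehicle, with all 9 libraries (filled points, lines ± SE) and without aged vehicle library 4 (open diamonds). Gabarapl1, Atg13, Atg14 and Bnip3l keep values between 0.47 and 0.77 without that library, while Ctsl and Ctsd go below 0.

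The second comparison, aged GW8510 over aged vehicle, asked whether these transcripts differ with the compound in 18-month muscle. None of the 38 genes passed (edgeR quasi-likelihood, Benjamini-Hochberg), and 0% of all genes did. DESeq2 called 10 genes (0.0695%) and the fit with no filter on low counts 5 (0.0194%), none of them among the 38. The smallest adjusted p of the 38 was 0.934. At an unadjusted p under 0.05 there was 1 of the 38, Tfe3, which was higher, against 4.5% of all genes (2.71% higher and 1.79% lower). The log2 fold changes ran from -0.73 to 0.44, with 8 above 0 and 30 below and a median of -0.11, against 0.01 and 50.9% above 0 over all genes. Without aged vehicle library 4 the median was 0.02, with 20 of 38 above 0, so the sign rested on that library.

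The genes with the lowest values, Ctsl at -0.73 (standard error 0.41), Sqstm1 at -0.59 (0.30), Ctsd at -0.52 (0.30), Map1lc3b at -0.45 (0.37), Bnip3 at -0.43 (0.32) and Nbr1 at -0.40 (0.22), were at 0.07, -0.07, -0.03, 0.20, 0.11 and -0.09 without aged vehicle library 4. In Sqstm1 and Ctsl the treated libraries lay close to the 2 other aged vehicle libraries: 525 ± 16.3 CPM for Sqstm1 (SD, n = 3) against 557 and 538, and 95.9 ± 3.9 CPM for Ctsl against 98.3 and 83.4. Those of Map1lc3b reached up to 320 CPM, against 233 and 205, and those of Bnip3 up to 311 CPM, against 246 and 275. In the ATG8 family 5 of 5 were below 0 with all libraries (median -0.22), and 3 of 5 above 0 without library 4 (median 0.20).

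In 2 genes the treated and aged vehicle libraries did not overlap. Tfe3 was the 1 gene above, at 10.1 ± 0.491 CPM against 7.45 ± 1.41 CPM (SD, n = 3). Its log2 fold change was 0.44 (standard error 0.19; unadjusted p = 0.0456 and adjusted p = 0.934, edgeR quasi-likelihood with Benjamini-Hochberg adjustment), and 0.40 without aged vehicle library 4. Atg12, for the ubiquitin-like protein that is joined to ATG5, was the 1 gene below. It measured 29.3, 31.4 and 35.1 CPM in young vehicle, 36.7, 28.5 and 27.2 in aged vehicle and 25.5, 23.9 and 24.2 in aged GW8510 libraries. The 3 treated libraries were the lowest of the 9, with a log2 fold change of -0.33 (0.15; unadjusted p = 0.0553, edgeR quasi-likelihood), and -0.42 without library 4. Over all genes 3.89% lay above and 3.33% below without overlap. Tfeb, at -0.38 (0.22), and Hexa, at -0.35 (0.22), had overlapping libraries, and Hexa was at -0.04 without library 4.

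Several genes were close to equal in treated and untreated aged muscle. Gabarapl1 stood at 65.2 ± 15.1 CPM in aged GW8510 and 66.1 ± 20 CPM in aged vehicle libraries, a log2 difference of -0.02 (standard error 0.24), or 0.25 without library 4. Atg13 differed by -0.11 (0.13), Atg14 by -0.12 (0.14), Bnip3l by -0.09 (0.19) and Pink1 by 0.15 (0.15). These standard errors do not show that the groups are alike.

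The third comparison, aged GW8510 over young vehicle, sets treated aged muscle beside the same young libraries and does not separate age from the compound. None of the 38 passed (edgeR quasi-likelihood, Benjamini-Hochberg), where 0.751% of all genes did (0.334% higher and 0.417% lower). The median was 0.13, with 22 above 0 and 16 below, against 0.01 and 51.3% above 0 over all genes. At an unadjusted p under 0.05 there were 7 of the 38 (16.7% of all genes), 6 higher (8.51%) and 1 lower (8.17%). In 12 genes the treated libraries all lay above the young ones (12.9% of all genes) and in 2, Atg12 and Atg16l1, all below (12.8%).

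Gabarapl1 again had the largest value, a log2 fold change of 1.03 (standard error 0.25; edgeR quasi-likelihood, Benjamini-Hochberg adjusted p = 0.0825). It passed in 4 of the 15 alternatives: with DESeq2 (6.05% of all genes passed), with no filter (2.15%), with only the 6 libraries compared (3.35%) and without aged vehicle library 4 (4%). The last of these gave 1.02 (edgeR adjusted p = 0.0249), and over the 15 (edgeR, DESeq2 and limma) the adjusted p ran from 0.00513 to 0.275. The authors' deposited table gives a log2 ratio of 1.03 for Gabarapl1 between these groups (adjusted p = 0.000114, DESeq2 or edgeR by the processing notes), again the one gene of the 38 marked (3% of the genes they tested; 0.0246% between the 2 aged groups, none of them among the 38). Bnip3l, at an adjusted p of 0.0148 in the authors' deposited table (same tools), is not marked there. By edgeR, Gabarap followed Gabarapl1 at 0.64 (standard error 0.31), then Bnip3l at 0.58 (0.19), Bnip3 at 0.44 (0.32), Atg13 at 0.44 (0.13), Pink1 at 0.43 (0.15), Atg14 at 0.42 (0.15) and Optn at 0.39 (0.16). In CPM all had treated libraries above the young range, with adjusted p-values from 0.144 to 0.517 (edgeR quasi-likelihood, Benjamini-Hochberg). Deposited TPM means of treated and young libraries were 163 ± 4.15 and 152 ± 11.2 for Bnip3 and 356 ± 16.4 and 313 ± 53.1 for Pink1 (SD, n = 3). They were 35.2 ± 0.715 and 32.1 ± 3.31 for Optn, 154 ± 34.4 and 115 ± 8.35 for Gabarap, and 52.9 ± 15.2 and 36.8 ± 1.61 for Bnip3l. Map1lc3b, at 0.43 (0.37), overlapped with the young libraries. Pink1 passed with DESeq2 (adjusted p = 0.0361; 0.0361 to 0.473 over the 15 alternatives with edgeR, DESeq2 and limma). Atg12 lay below, at -0.38 (0.15). Of the 6 genes at 2 times or more the median of the other 8 libraries in aged vehicle library 4, 3 lay near the young level in treated muscle, with log2 fold changes of 0.05 (0.30) for Sqstm1, -0.08 (0.30) for Ctsd and -0.12 (0.41) for Ctsl.

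The other genes of the pathway were 139 in 7 lists, all tested, and none passed in any of the 3 comparisons (edgeR quasi-likelihood, Benjamini-Hochberg). With age, 76 of the 139 were above 0 and 63 below, and the median was 0.04. The lists differed in this count. Of 12 other cargo receptor genes 11 were above 0 (median 0.30), of 16 other proton pump subunits 11 (median 0.23) and of 16 other lysosomal membrane and sorting genes 12 (median 0.14). Without aged vehicle library 4 these were 9 of 12 (median 0.15), 12 of 16 (0.14) and 9 of 16 (0.08). Of 38 other lysosomal enzyme genes only 9 were above 0 (median -0.20), of 23 other core autophagy genes 10 (median -0.03), and of 23 nutrient-sensing regulators 15 (median 0.04).

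Retreg1, the receptor for autophagy of the endoplasmic reticulum, measured 98.6, 74.1 and 74.7 CPM in young vehicle, 144, 142 and 310 in aged vehicle and 153, 251 and 297 in aged GW8510 libraries. All 6 aged libraries lay above the young ones, with log2 fold changes of 1.27 (standard error 0.34; adjusted p = 0.0999) for aged vehicle and 1.5 (0.34; adjusted p = 0.0725) for aged GW8510 by edgeR's quasi-likelihood test with Benjamini-Hochberg adjustment. The age value was 0.80 without aged vehicle library 4. Retreg1 passed in both comparisons with DESeq2 and with no filter on low counts, and against young vehicle the treated libraries also passed with only the 6 libraries compared and without aged vehicle library 4. Cd63, a tetraspanin of late endosomes, measured 74.5, 84.2 and 80.2 CPM in young and 115, 123 and 333 in aged vehicle libraries, again highest in library 4, and its log2 fold change of 1.26 was 0.58 without it. Ctsk, for the matrix-degrading cathepsin K, had the most negative age difference of the 139, at 4.92, 9.21 and 4.33 CPM in young vehicle and 0.836, 1.63 and 0.433 in aged vehicle libraries. Its log2 fold change was -2.66 (0.59; adjusted p = 0.0661, edgeR quasi-likelihood), and fibroblast markers, also lower in the aged libraries, had their lowest sum in library 4, where Ctsk was lowest too; their part was not tested. Wdr45, a phosphoinositide-binding gene related to Wipi1, measured 20.2, 24.2 and 22.9 CPM in young and 31.7, 30.9 and 44.2 in aged vehicle libraries. The pump subunit gene Atp6v1c1 measured 22.3, 24 and 25.5 against 30.7, 31.5 and 38.9 CPM, with no overlap in either gene. Age differences of Ctsk, Cd63, Wdr45 and Atp6v1c1 passed with DESeq2, where 6.77% of all genes did. Those of Ctsk and Cd63 also passed with no filter on low counts, where 2.72% did.

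In the list of FOXO factors and atrophy genes, 8 of 11 genes were highest in aged vehicle library 4, as were 9 of the 12 other cargo receptor genes. Of the 38 other lysosomal enzyme genes 6 were highest there, and of all genes 23.2%. The median of the atrophy list with age was 0.60, and -0.01 without that library. Fbxo32 (atrogin-1), a ubiquitin ligase gene of muscle atrophy, measured 340, 260 and 1535 CPM in aged vehicle, 292, 218 and 213 in young vehicle and 214, 281 and 275 in aged GW8510 libraries. Library 4 was 5.74 times the median of the other 8, and the age difference of 1.56 (standard error 0.57) was 0.32 without it. Klf15, a glucocorticoid-induced factor, had a log2 fold change of 0.91 (0.26), or 0.65 without that library. Its age difference passed with DESeq2 and with no filter on low counts. Cdkn1a, the cell cycle inhibitor p21, measured 50.4, 35.4 and 31.9 CPM in young vehicle, 21.7, 14.6 and 43.2 in aged vehicle and 12.9, 9.78 and 14.9 in aged GW8510 libraries. The treated libraries lay below every young library and overlapped with aged vehicle library 3. The log2 fold changes were -1.65 (0.37, adjusted p = 0.0701) against young and -1.08 (0.36, adjusted p = 0.934) against aged vehicle libraries by edgeR's quasi-likelihood test with Benjamini-Hochberg adjustment. Against young vehicle Cdkn1a passed with DESeq2, with no filter on low counts, with only the 6 libraries compared and without aged vehicle library 3 or 4.

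Against aged vehicle, the treated libraries gave values above 0 in 51 of the 139 genes and below in 88, with a median of -0.06. Rubcn, for the autophagy inhibitor Rubicon, measured 43.8, 35.2 and 44.4 CPM in young vehicle, 35.1, 35.8 and 33.6 in aged vehicle and 25.8, 27 and 28.6 in aged GW8510 libraries. Its 3 treated libraries were the lowest of the 9, at log2 fold changes of -0.36 (standard error 0.14; adjusted p = 0.934) against aged vehicle and -0.60 (0.14; adjusted p = 0.072) against the young group by edgeR's test with Benjamini-Hochberg adjustment. Rubcn passed against young vehicle with DESeq2, where 6.05% of all genes did, and without aged vehicle library 4, where 4% did. Against young vehicle, 72 of the 139 were above 0 in the treated libraries, and the median was 0.02.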

How the data were processed

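Muscle RNA was sequenced in 9 libraries. Per the file headers and values, the authors deposited a table for every pairing of the 3 groups, holding expected counts per gene (91.4% are whole numbers, the rest fractions), TPM values, and their own log2 ratios and p-values. The submitters' processing notes name GRCm38 and CASAVA, HISAT2, StringTie, RSEM, DESeq2 and edgeR, without roles. The annotation and the use of strand are not given in the sources used here. All 55536 gene IDs were in GENCODE M21, which gave the coordinates.

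Counts were rounded and filtered with filterByExpr (14384 genes, all 38 described genes among them), scaled with TMM factors and tested with edgeR 4.0.16 in R 4.3.3: the quasi-likelihood F test, two-sided, 1 fit of all 9 libraries, Benjamini-Hochberg adjustment over all genes tested, threshold 0.05. Standard errors were derived by dividing the size of the log2 fold change by √F. The fit was tested on simulated counts. TPM was used where levels of different genes are compared. Totals of 21718965 to 27437970 counts put 3 counts at 0.109 to 0.138 CPM, for counting error only. The alternatives were other size factors, no low-count filter, DESeq2 1.42.0, limma-voom (limma 3.58.1), only the 6 libraries compared, the replicate number as a block, and each library left out.

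Library values are given for the genes with the 8 smallest p-values in each comparison, the ATG8 family, Tfeb, Tfe3 and the gene of highest TPM in each role, which makes 26 genes. Of each pathway list, the 2 genes with the smallest p in a comparison could be named, and some of them are. Rb1cc1 was named outside this rule, after its values were seen. Other genes named with library values (Atg7, Atg16l1, Lamp2, Atp6v1a, Ctsa, Ctsb and Ctsz) were chosen after their values were seen. The genes and lists were chosen with earlier results of these data known. A planned comparison of the LC3 and GABARAP protein sequences was not run.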

Additional observations from a re-analysis of the deposited data

How the results depend on the processing

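The count of genes called with age, 175, was 699 with no filter, 974 with DESeq2, 50 with only the 6 libraries and 5 with the replicate block, and 19 to 148 with 1 library left out. Of the 38 genes it was 1 with no filter (Gabarapl1) and 4 with DESeq2 (Atg13, Atg14, Bnip3l and Gabarapl1), and of the other pathway genes 4 with no filter, 7 with DESeq2 and 0 to 1 with 1 library left out (Npc1, without aged vehicle library 4). The 4 pathway genes were Cd63, Ctsk, Klf15 and Retreg1, to which DESeq2 added Arsa, Atp6v1c1 and Wdr45. These counts are out of 139 other pathway genes. Over all genes 2.72% were called with no filter, 6.77% with DESeq2 and 0.963% without aged vehicle library 4. For aged GW8510 over aged vehicle, 5 genes were called with no filter, 10 with DESeq2 and 0 to 2 with 1 library left out, and the median of the 38 genes ran from -0.18 without aged vehicle library 3 to 0.02 without library 4. For aged GW8510 over young vehicle, the 108 genes became 553 with no filter, 870 with DESeq2, 469 with only the 6 libraries, 8 with the replicate block and 25 to 594 with 1 library left out (594 without aged vehicle library 4). Of the 38 these were 1, 2 (Gabarapl1 and Pink1) and 1 with no filter, DESeq2 and the 6 libraries, and 0 to 1 with 1 library left out; of the other pathway genes 3, 5, 3 and 0 to 5. Those pathway genes were Cdkn1a, Ctsk and Retreg1 with no filter, joined by Fnip1 and Rubcn with DESeq2. With only the 6 libraries they were Cdkn1a, Npc1 and Retreg1. Over all genes 2.15% were called with no filter, 6.05% with DESeq2, 3.35% with the 6 libraries and 4% without aged vehicle library 4. The median of the 38 genes, 0.13, was 0.17 with the block and 0.07 to 0.13 with 1 library left out, lowest without aged GW8510 library 1. The replicate block called none of the 38 genes in any comparison. Libraries of the same number did not deviate together (correlations of -0.209 to 0.138), so the numbers are not taken as pairs.

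Of 1170 alternative fits of the 26 genes, 1127 kept the sign and the side of the threshold, 10 newly passed and 33 changed sign, 12 of these without aged vehicle library 4. With 1 library left out, the log2 fold changes with age ran from -0.19 to 0.03 for Atg12, -0.06 to 0.68 for Ctsd, -0.19 to 0.92 for Ctsl and -0.07 to 0.41 for Nbr1. Those of aged GW8510 over aged vehicle ran from -0.04 to 0.11 for Atg3, -0.09 to 0.08 for Atg9a, -0.16 to 0.18 for Atp6v0d1, -0.13 to 0.03 for Becn1, -0.67 to 0.11 for Bnip3, -0.23 to 0.10 for Bnip3l, -1.04 to 0.07 for Ctsl, -0.46 to 0.21 for Gabarap, -0.19 to 0.25 for Gabarapl1, -0.21 to 0.10 for Lamp1, -0.71 to 0.20 for Map1lc3b and -0.09 to 0.21 for Optn. Those of aged GW8510 over young vehicle ran from -0.02 to 0.14 for Becn1, -0.15 to 0.02 for Ctsd, -0.03 to 0.25 for Gabarapl2, -0.03 to 0.10 for Sqstm1 and -0.31 to 0.05 for Tfeb. With the replicate block Becn1 stood at -0.04 with age, and against young vehicle the treated libraries stood at -0.08 for Becn1, 0.08 for Ctsl and -0.04 for Gabarapl2. The causes of these changes were not tested. With 3 libraries a group, differences of the size seen in most of these genes lie within the spread between libraries.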
